A study of Ovis aries with 7 samples.

Results

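The genes described here are the cadherins and protocadherins of the sheep striatum, taken as every annotated gene whose symbol is CDH or PCDH followed by digits, or begins with PCDHA, PCDHB or PCDHG. The rule found 40 of the 26479 features of the count tables. They were 5 type I classical cadherins, 13 type II classical cadherins, 4 other cadherins, 3 delta-1 protocadherins, 5 delta-2 protocadherins, 3 other non-clustered protocadherins and 7 clustered protocadherins.

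Cadherins are calcium-dependent adhesion proteins of the plasma membrane. The classical members bind the same or a related cadherin on the neighbouring cell and are tied to the actin cytoskeleton through catenins. Protocadherins lack the catenin-binding tail, and in the brain both families are known for sorting neurons and glia, guiding axons and specifying synapses.

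Single-nucleus RNA-seq was made from anterior ventral-medial striatum of 5-year-old sheep. OVT73 sheep carry a full-length human HTT cDNA with a 73-glutamine repeat under human HTT upstream sequence, and this transgenic line is reported to have no striatal cell loss; controls were wild-type sheep of the same age. The 3 OVT73 libraries each held 2 pooled sheep, control libraries 3 and 4 each held 2 pooled sheep, and control libraries 1 and 2 each held 1 sheep, so that 6 sheep stood behind each group. Nuclei of pooled sheep were not assigned to sheep here, and the library was the replicate (n = 3 OVT73 and n = 4 control).

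The libraries held 20887378 to 70473426 UMIs, and 32599 nuclei were kept. Every OVT73 library was deeper than every control library, with 27760110 to 70473426 UMIs against 20887378 to 27704528. The median UMIs per kept nucleus were 2221 to 2562 in OVT73 and 1860 to 2170 in control libraries. Depth and group thus go together in every OVT73 comparison below, and the part of depth was not tested. Classes were built without any cadherin among the genes used for clustering or naming, and those named X-like from their markers are written without the suffix. There were 15111 oligodendrocytes, 2919 oligodendrocyte precursor cells (OPCs), 1594 astrocytes, 2794 microglia, 1283 neuroblasts, 5246 MSNs (medium spiny neurons, the GABAergic projection cells of the striatum) and 542 interneurons. The D1 and D2 MSN subclasses held 1729 and 2084 nuclei, so results for them leave out the other MSNs. An 867-nucleus cluster (EBF1 cluster) belonged to neither. The study used EBF1, with TAC1, as a marker of D1 MSNs, so D1 results here leave out nuclei that carry that marker. An 87-nucleus cluster led by FLT1 raised endothelial, mural and fibroblast markers alike and was left unnamed. A 318-nucleus cluster led by FOXP2 raised both MSN and interneuron markers and was also left unnamed. FOXP2, with OTOF, was the study's marker of eccentric MSNs, so this FOXP2 cluster may be that MSN subtype, which was not tested. The MSN class here leaves the FOXP2 cluster out. Levels are CPM, the UMIs of a gene per 1000000 UMIs of the class and library, and are compared between classes for 1 gene at a time, since gene length was not taken into account. Transcripts typical of one class were also counted in others: over 12 MSN markers the median stood at 8.98% of its MSN level in oligodendrocytes, 9.59% in OPCs, 9.61% in astrocytes, 1.56% in microglia and 19.8% in interneurons, with single markers between 0.784% and 76.7% in oligodendrocytes. How much of this is free RNA in the droplets was not tested.

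The first question was which cadherins mark a class. A member was counted as marking when its mean level in 1 of the 8 classes (the 7 named and the FLT1 cluster) was at least 20 CPM, at least 3 times that of the next class, and higher in every library with at least 10 nuclei of both. Of the 28 members at 20 CPM or more in some class, 6 marked one; over all genes at that level the share that marked a class was 11.6%. PCDH15, PCDH20 and CDH19 marked OPCs, as did 0.67% of all genes. CDH23 marked microglia (4.24% of all genes), CDH9 marked MSNs (0.877%) and CDH7 marked interneurons (0.722%). Since the rule itself asks for the same direction in every library, these are descriptions and no test is given.

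**Figure D1:**
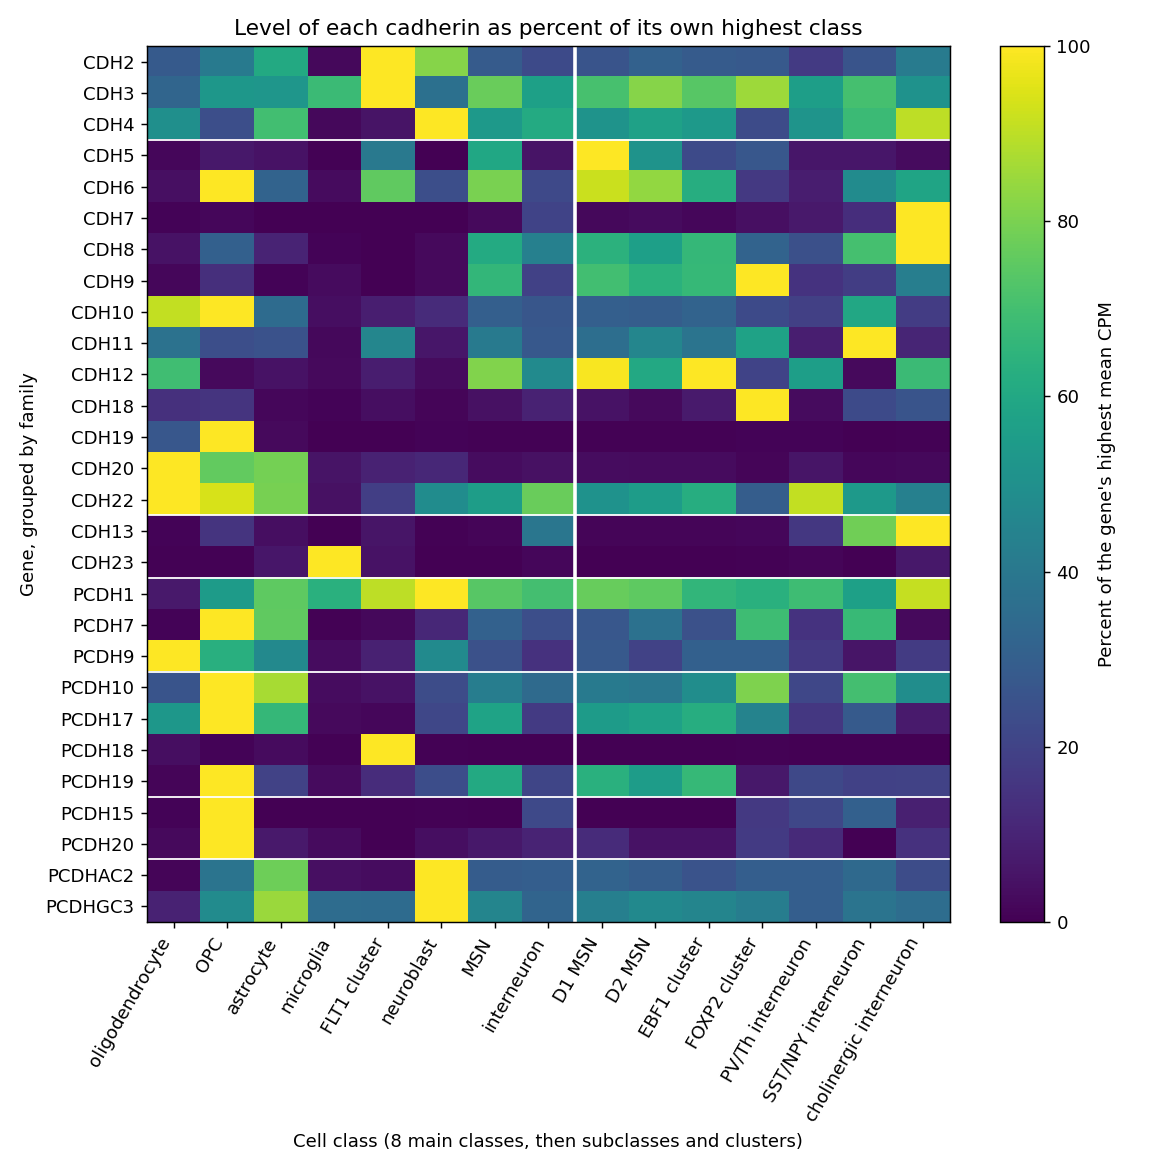
Colour gives the mean CPM of a gene in a class as a percentage of that gene's own highest class, for the 28 members (rows, grouped by family) at 20 CPM or more, in the 8 main classes and 7 subclasses or clusters (columns). The brightest cell of a row stands alone for CDH19, PCDH15 and PCDH20 in OPCs and CDH23 in microglia, whereas CDH22 ranges only from 36.9 CPM in neuroblasts to 75.9 CPM in oligodendrocytes over the neuronal and macroglial classes.

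Among the type I classical cadherins, CDH2 (N-cadherin) was found in neurons and macroglia and was low in microglia. Its level was 966 ± 222 CPM (SD, n = 7) in neuroblasts, 717 ± 172 in astrocytes and 338 CPM in MSNs, against 25.8 ± 24.6 in microglia. In the FLT1 cluster it reached 1179 CPM from 167 UMIs pooled over libraries. CDH4 (R-cadherin) was likewise highest in neuroblasts, at 677 ± 177 CPM, followed by astrocytes at 472 ± 48.8 CPM. These neighbours differed by less than 3 times and neither gene marked a class.

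Type II classical cadherins followed. CDH19 was at 122 ± 22.2 CPM in OPCs and 33.2 ± 16.8 in oligodendrocytes, with OPC values of 135, 127 and 118 CPM in the OVT73 libraries and 164, 102, 99.5 and 111 CPM in the control libraries. In astrocytes its mean was 3.03 CPM, and both groups of libraries lay in the same range in OPCs. CDH20 was a gene of all 3 macroglial classes, at 223 ± 18.9 CPM in oligodendrocytes, 177 ± 22.3 in astrocytes and 170 ± 15.9 in OPCs, against 7.28 ± 2.17 in MSNs and 9.99 ± 4.74 in interneurons. CDH10 was near its maximum in both OPCs (577 ± 57.5 CPM) and oligodendrocytes (525 ± 91.5 CPM), whose order does not stand beyond that spread.

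CDH9, a type II cadherin known from synapse formation between defined neurons, marked MSNs at 133 ± 40.0 CPM against 38.9 ± 18.7 CPM in interneurons. The MSN values were 198, 106 and 131 CPM in the OVT73 libraries and 169, 76.5, 125 and 122 CPM in the control libraries. OVT73 library 1 was the highest of the 7, and without it the ratio to interneurons was 2.96 rather than 3.40, under the limit of 3; at clustering resolution 0.5 it was 1.68. Its level in OPCs was 20.5% of that in MSNs, and in oligodendrocytes 2.65%. The MSN marker list had a median of 9.59% in OPCs, with single markers between 1.91% and 34.5%, a range that includes CDH9. The unnamed FOXP2 cluster had a higher level than the MSN class, at 200 ± 53.1 CPM.

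CDH8 was at 619 ± 72.3 CPM in MSNs and 441 ± 78.6 CPM in interneurons, and its OPC level was 50.0% of that in MSNs. Within interneurons it was at 1011 CPM in cholinergic and 711 CPM in SST/NPY cells, both pooled over libraries. The PV/Th libraries ranged from 181 to 323 CPM. CDH12 was at 359 ± 124 CPM in MSNs and 307 ± 182 CPM in oligodendrocytes but at 11.3 ± 3.08 CPM in OPCs, and its lowest oligodendrocyte library (111 CPM) was above its highest OPC library (14.9 CPM). CDH18 was highest in the FOXP2 cluster, at 741 ± 87.5 CPM, with 618 CPM in its lowest library. The MSN class, which leaves that cluster out, stood at 33.0 ± 11.6 CPM, and no MSN library exceeded 51.8 CPM. CDH6 was at 177 ± 22.6 CPM in OPCs and 141 ± 41.6 CPM in MSNs. CDH11 (OB-cadherin) was at 480 ± 83.1 CPM in the FOXP2 cluster, 343 ± 35.7 CPM in MSNs and 381 CPM (54 UMIs) in the FLT1 cluster.

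CDH7 marked interneurons at 33.1 ± 25.1 CPM against 4.15 CPM in MSNs. Its interneuron values were 15.8, 31.6 and 22.6 CPM in the OVT73 libraries and 16.2, 34.5, 23.1 and 87.6 CPM in the control libraries, with control library 4 far above the others. Within interneurons it was concentrated in cholinergic cells, at 163 CPM pooled over 41 nuclei, with 21.2 CPM in the next subclass (SST/NPY). CDH5, known as VE-cadherin of vascular endothelium, was at 21.2 CPM in the FLT1 cluster, on 3 UMIs, too few to rank that cluster against the others. It was also detected in D1 MSNs, at 52.6 ± 23.0 CPM from 1642 UMIs, and in D2 MSNs at 27.1 ± 14.3 CPM. In the EBF1 cluster its libraries ranged from 7.16 to 19.2 CPM. Its mean was 0.882 CPM in oligodendrocytes and 2.63 CPM in astrocytes.

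The other cadherins had 2 members at 20 CPM or more. CDH23, a long cadherin of the tip links of inner-ear hair cells, was the microglial member, at 564 ± 148 CPM (2251 UMIs) against 33.5 ± 13.8 CPM in astrocytes, and the 156 macrophages had 432 CPM. CDH13 (T-cadherin, which is anchored to the membrane by a lipid and has no cytoplasmic tail) was at 1183 ± 282 CPM in interneurons, 2.64 times its level in OPCs. Within interneurons it was at 3004 CPM in cholinergic and 2356 CPM in SST/NPY cells but 489 ± 176 CPM in PV/Th cells.

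The delta-1 protocadherins were present in neurons and glia. PCDH9 gave 89.3% ± 1.38 (SD, n = 7) of all member UMIs in oligodendrocytes, a share of UMIs that is not corrected for gene length, and the members together gave 2.60% ± 0.38 of all UMIs of that class. Its level was 23287 ± 3648 CPM in oligodendrocytes, 14691 ± 1737 in OPCs and 5801 ± 1129 in MSNs. Neuroblasts (11172 CPM) and astrocytes (10997 CPM) did not differ beyond their spread, and microglia had the lowest mean, 729 CPM. The microglial libraries ranged from 206 to 2507 CPM; the highest, control library 3, also had 2223 CPM of summed oligodendrocyte markers in its microglia, against 313 to 528 CPM in the other 6. PCDH7 was at 2754 ± 257 CPM in OPCs, 2084 ± 223 in astrocytes and 1902 ± 297 in the FOXP2 cluster, but at 27.1 ± 7.65 CPM in oligodendrocytes. Among interneurons PCDH7 stood at 1854 CPM in SST/NPY cells against 404 CPM in PV/Th cells. CDH10 (347 against 108 CPM) and CDH11 (833 CPM, next 85.4 CPM) also marked SST/NPY cells, as did 2.11% of all genes. Cholinergic cells were marked by CDH7 and by CDH23, the latter at 36.9 CPM, and by 2.66% of all genes. Without OVT73 library 3, 17 of the 48 CDH23 UMIs in cholinergic cells were left and the level was 14.7 CPM, under the limit of 20. In all, 5 of 22 members marked an interneuron subclass, against 7.39% of all genes. No member of 19 separated D1 from D2 MSNs by the same rule, which 0.476% of all genes did.

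The delta-2 protocadherins, which bind the WAVE actin regulators, were highest in OPCs for 3 of the 5. PCDH17 was at 402 ± 16.0 CPM in OPCs, 268 ± 39.5 in astrocytes and 233 ± 33.6 in MSNs, and PCDH10 at 145 ± 13.4 CPM in OPCs and 127 ± 28 in astrocytes. PCDH19, an X-linked gene mutated in a form of epilepsy, was at 112 ± 20.7 CPM in OPCs and 68.2 ± 17.7 in MSNs but 1.59 ± 1.04 in oligodendrocytes. PCDH18 was at 77.7 CPM in the FLT1 cluster, on only 11 UMIs, and at 3.03 ± 1.75 CPM in oligodendrocytes.

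PCDH15, the tip-link partner of CDH23 and a gene the study used to name OPCs, stood at 3999 ± 673 CPM in OPCs. Its next class was interneurons, at 879 ± 139 CPM. The FOXP2 cluster had 657 ± 177 CPM, whereas the MSN class, which leaves that cluster out, had 11.3 ± 3.85 CPM. PCDH20 was at 21.6 ± 4.85 CPM in OPCs from 243 UMIs, with no library under 14.5 CPM, and at 2.12 CPM in the next class.

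The clustered protocadherins give neurons their cell-surface identity through many alternative first exons. Isoforms of the alpha and of the gamma cluster share their last exons, so reads from the 3′ end cannot be told apart between isoforms and the assignment to 1 symbol is uncertain. PCDHAC2 was at 632 ± 57.7 CPM in neuroblasts and 492 ± 69.4 in astrocytes, against 9.51 ± 2.73 in oligodendrocytes. PCDHGC3 was at 630 ± 72.3 CPM in neuroblasts and 536 ± 51.4 in astrocytes, and with 222 ± 29.9 CPM it was also present in microglia. The other 5 clustered members stayed under 20 CPM in every class, as did 7 non-clustered ones.

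**Figure D2:**
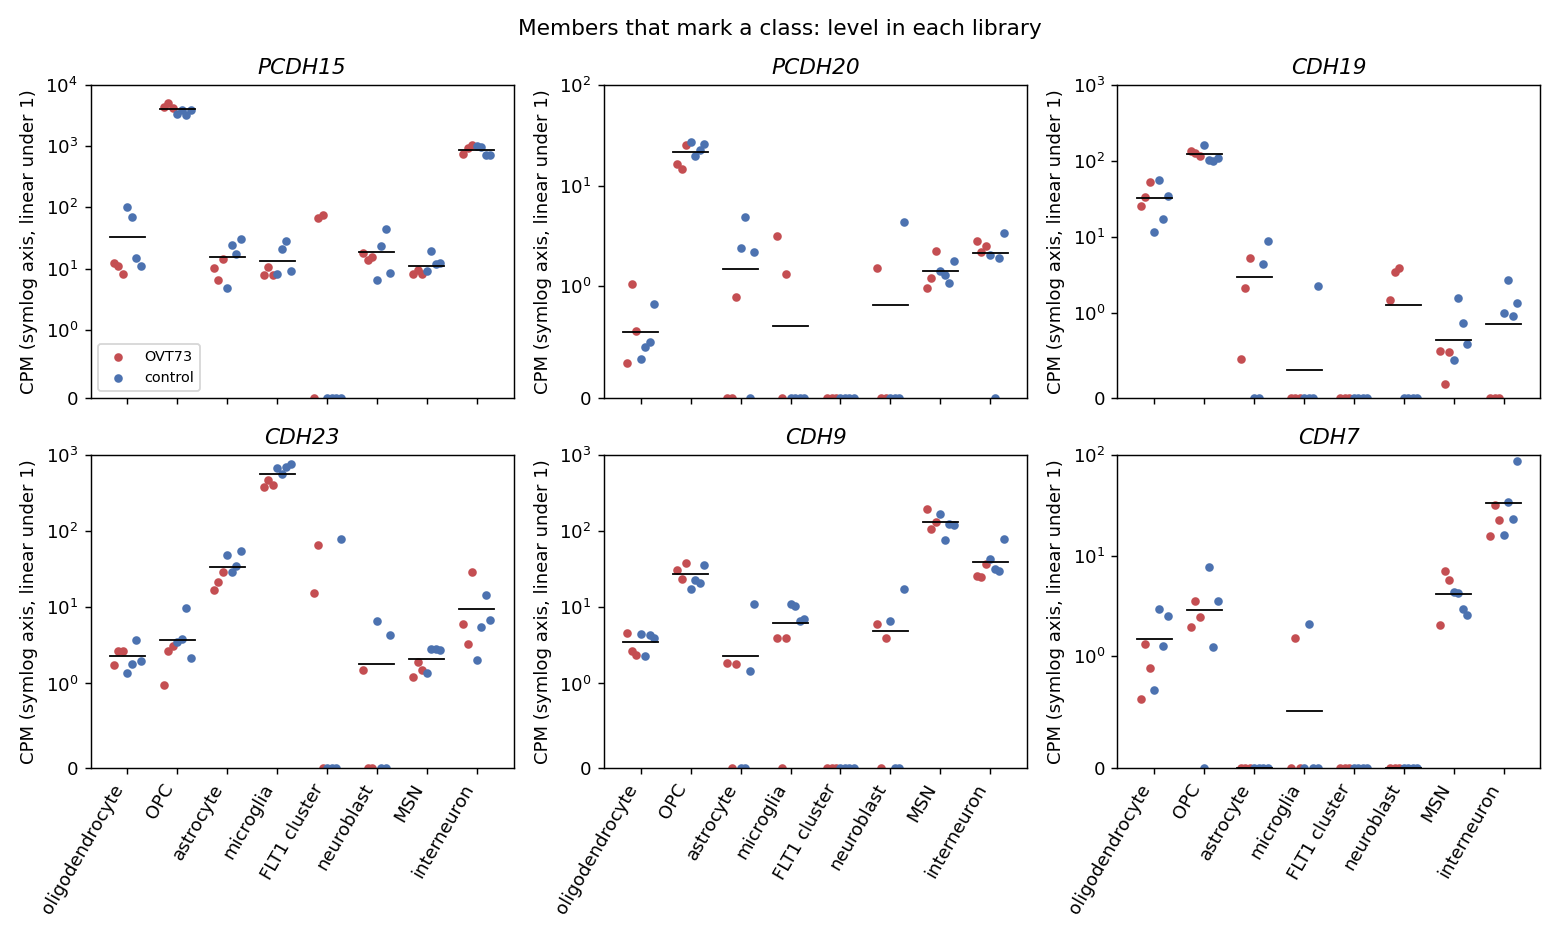
Each point is the CPM of 1 library in 1 class (red OVT73, blue control; the axis is linear under 1 CPM and logarithmic above), with black lines at the mean of the 7 libraries except for the FLT1 cluster, whose libraries hold as few as 4 nuclei. For PCDH15, PCDH20, CDH19, CDH23, CDH9 and CDH7 the points of the marked class lie above those of the next class in every library.

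Adjacent members were not always highest in the same class. In the RefSeq gene order CDH9, CDH10 and CDH12 followed each other with no other protein-coding gene between them, and they were highest in MSNs, OPCs and MSNs. For CDH10 (577 against 525 CPM) and CDH12 (359 against 307 CPM) oligodendrocytes came next, within the spread over libraries. CDH19 and CDH7, also adjacent, marked OPCs and interneurons. PCDH20 and PCDH17, with 2 protein-coding genes between them, were both highest in OPCs.

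In oligodendrocytes several cadherins differed strongly between libraries, including between libraries of 1 group. The highest library was at least 5 times the lowest for 5 of 17 members at 20 CPM or more, while over all 5585 genes at that level the share was 1.25%. CDH18 was at 171, 144 and 137 CPM in the OVT73 libraries and at 136 and 125 CPM in control libraries 3 and 4, but at 11.8 CPM (34 UMIs) in control library 1 and 1.6 CPM (7 UMIs) in control library 2. Those 2 libraries are the ones with a single sheep each.

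PCDH15 was the other way round, at 102 and 69.4 CPM in oligodendrocytes of control libraries 1 and 2 and between 8.06 and 15.1 CPM in the other 5. CDH8 followed, at 72 and 174 CPM in the same libraries and 15.5 to 26.1 CPM elsewhere. The summed level of the OPC markers in those oligodendrocytes was 837 and 985 CPM, within the 594 to 1008 CPM of the other libraries. CDH13 ranged from 7.12 CPM in OVT73 library 2 to 79.6 CPM in OVT73 library 1, and CDH12 from 111 CPM in OVT73 library 1 to 555 CPM in OVT73 library 2. These CDH13 and CDH12 extremes were in libraries of 2 sheep. The part of the number of sheep per library in these differences was not tested. By the same measure there were 0 of 21 such members in OPCs (1.07% of all genes), 0 of 19 in D1 MSNs (1.14%), 0 of 18 in D2 MSNs (1.06%) and 0 of 18 in the FOXP2 cluster (2.17%). There were 2 of 18 in astrocytes (4.64%), 3 of 18 in PV/Th interneurons (2.62%), 3 of 6 in microglia (5.07%) and 9 of 16 in neuroblasts (22% of all genes).

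**Figure D3:**
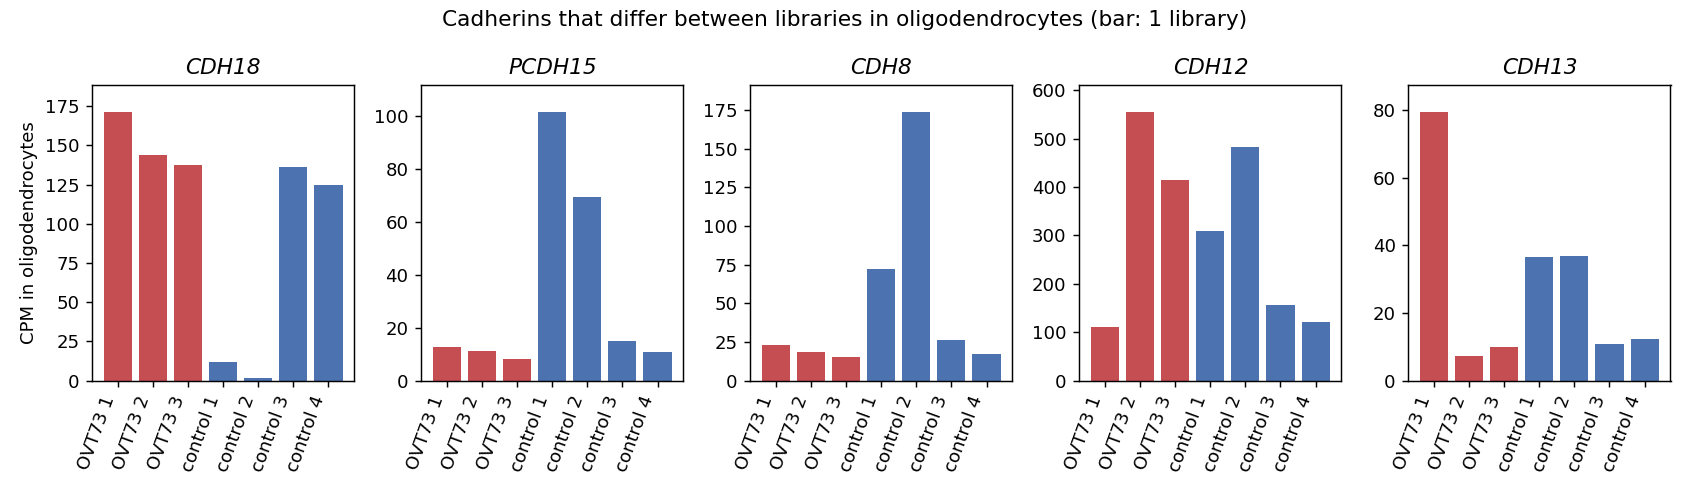
Bars give the CPM of CDH18, PCDH15, CDH8, CDH12 and CDH13 in the oligodendrocytes of each library, red for OVT73 and blue for control. CDH18 is nearly absent from control libraries 1 and 2, at 11.8 and 1.6 CPM, which are the libraries in which PCDH15 and CDH8 are highest.

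The second question was whether OVT73 and control libraries differed. UMIs were summed per library and class and tested with edgeR's quasi-likelihood test in 9 classes with at least 10 nuclei in every library. Pooled MSNs, pooled interneurons, the EBF1 cluster and a 520-nucleus cluster (DTHD1 cluster) also met that limit but were not tested. P-values were adjusted over all genes of the class. Values below are CPM after TMM scaling, except summed marker levels, which are CPM without it. Fold changes are log2 of OVT73 over control. The adjusted p passed 0.05 for 0 of 178 member and class pairs; the smallest was 0.579, for CDH18 and PCDH15 in OPCs. An unadjusted p under 0.05 was reached by 28 pairs, and by 4.98% of all gene and class pairs. DESeq2 called 1 member, CDH18 in OPCs, where it called 8 of all 8992 genes. Over all genes the edgeR test called 1 in OPCs (0.0111%), 1 in the FOXP2 cluster (0.0135%) and 0 in the other 7 classes (0%), and neither gene is a member. In simulated D2 MSN counts it recovered 49.0% of genes changed by 1 log2 unit and 0 of those changed by 0.5 log2 unit, so differences as small as many of those below could seldom be called.

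The 3 OVT73 and 4 control libraries did not overlap in 26 pairs, 15 with OVT73 higher and 11 lower, or 14.6% of the pairs; over all genes in the same classes the share was 6.07% (3.2% higher and 2.87% lower). Pairs of 1 gene in several classes come from the same sheep. Below, each exact permutation p covers all 35 ways to assign the 7 libraries, is two-sided and cannot go under 0.0286. Within single classes, pairs given with an exact p were picked because their groups did not overlap. Without overlap the true split is already the most extreme of the 35 in its direction. Only splits in the opposite direction can then raise the exact p. A low exact p thus follows from that choice, adds nothing to the lack of overlap and is descriptive. All adjusted p are from edgeR. Among tested members OVT73 was higher for 16 of 23 in oligodendrocytes, 15 of 24 in OPCs, 15 of 20 in astrocytes, 15 of 26 in D1 MSNs and 18 of 28 in D2 MSNs, with medians of 0.18, 0.14, 0.16, 0.12 and 0.15 on the log2 scale. It was higher for 14 of 21 in the FOXP2 cluster (median 0.12) and 11 of 20 in PV/Th interneurons (0.05). In microglia it was higher for 3 of 6 (0.06) and in neuroblasts for 4 of 10 (-0.14). The median over all genes lay between -0.02 and -0.01 in each class. Without TMM factors the member medians were 0.11 in oligodendrocytes, 0.05 in OPCs, 0.12 in astrocytes, 0.02 in D1 MSNs and 0.04 in D2 MSNs. Those over all genes in these classes then lay between -0.13 and -0.06. Single libraries bore on the TMM-scaled member medians. Without OVT73 library 2 they were 0.08 in oligodendrocytes, 0.08 in astrocytes and -0.0094 in D1 MSNs, where 14 of 28 members were then higher. In OPCs and D2 MSNs they were then 0.11 and 0.12. They were -0.42 in microglia, -0.25 in neuroblasts, 0.061 in the FOXP2 cluster and -0.054 in PV/Th interneurons. Without control library 3 the median was 0.09 in oligodendrocytes and 0.66 in microglia, the latter over 5 members.

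**Figure D4:**
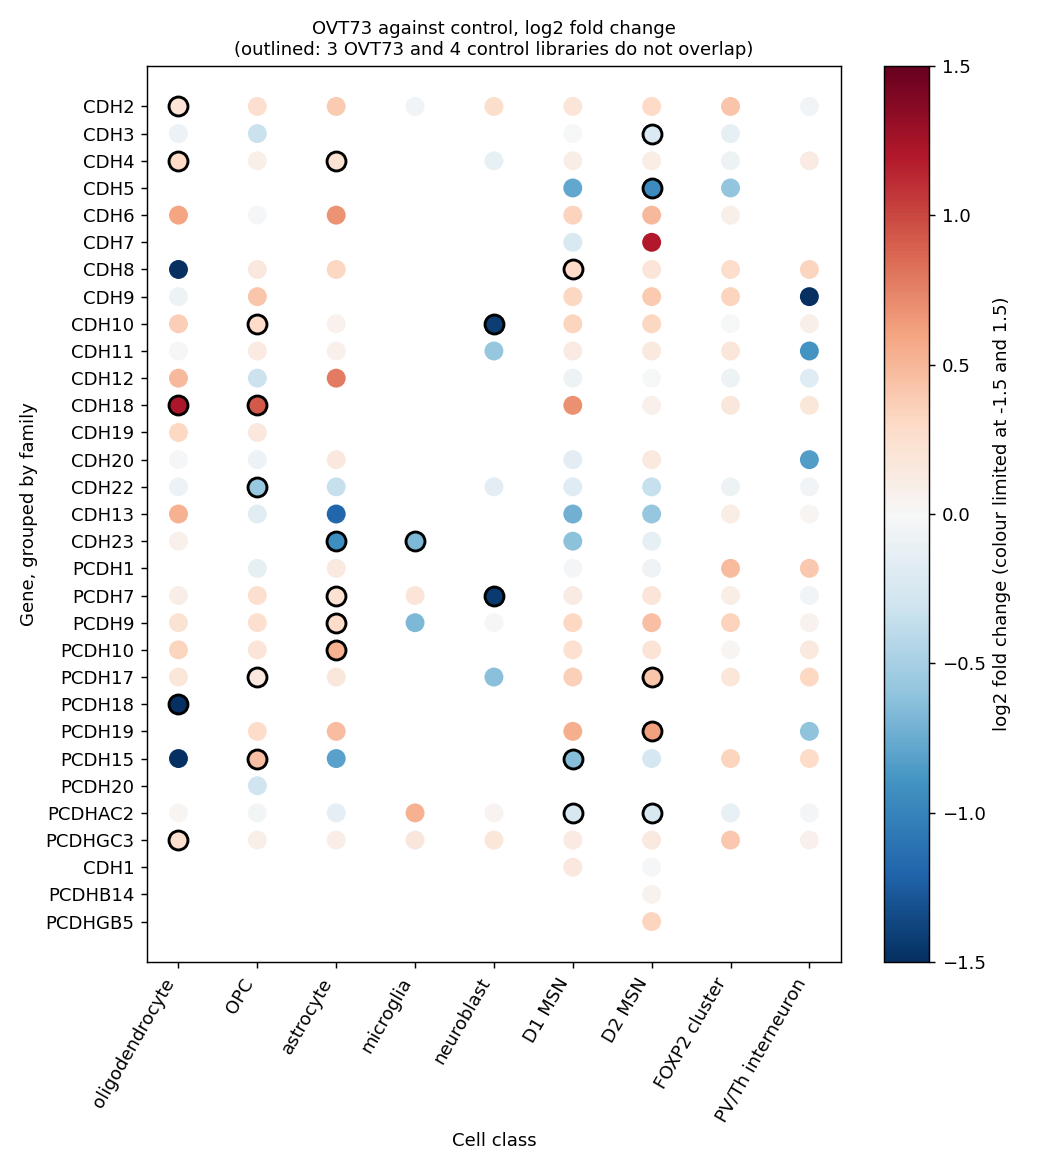
Colour gives the log2 fold change of OVT73 against control (colour scale limited at -1.5 and 1.5) for each member tested in each of 9 classes, and a black outline marks the 26 pairs in which the 3 OVT73 and 4 control libraries do not overlap. None of the 178 passed an adjusted p of 0.05.

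In microglia the marker CDH23 was lower in OVT73. Its level was 393, 506 and 425 CPM in the OVT73 libraries and 684, 598, 721 and 800 CPM in the control libraries, so that every OVT73 library lay under every control library. The log2 fold change was -0.67 ± 0.14 (SE), with an exact permutation p = 0.0286 and an adjusted p = 0.840 from edgeR. It was the 1 of 6 members tested in microglia without overlap, against 5.27% of all genes. The summed microglial markers overlapped between groups in these nuclei (18732 to 19200 CPM in OVT73 and 15038 to 19880 CPM in control). In astrocytes CDH23 was also lower, at 17.3, 23.1 and 29.7 CPM against 48.8, 30.6, 35.7 and 56.3 CPM (log2 fold change -0.93 ± 0.30, exact permutation p = 0.0571, adjusted p = 0.905), on 6 to 36 UMIs per library. The microglial markers in astrocytes overlapped between groups, at 139 to 342 CPM and 182 to 330 CPM.

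In OPCs the marker PCDH15 was higher in OVT73, at 4522, 5587 and 4376 CPM against 3252, 3985, 3005 and 3872 CPM in the control libraries. The groups did not overlap and the log2 fold change was 0.45 ± 0.12 (exact permutation p = 0.0286, adjusted p = 0.579). CDH18 was at 165, 134 and 161 CPM against 96.4, 47.0, 112 and 72.6 CPM, a log2 fold change of 0.92 ± 0.23 with the same exact and adjusted p. DESeq2 called CDH18 at an adjusted p of 0.0411. CDH22 was lower, at 55.4, 57.3 and 57.1 CPM against 107.3, 97.2, 67.0 and 61.9 CPM, with a log2 fold change of -0.57 ± 0.19 (exact permutation p = 0.143, adjusted p = 0.685), which became -0.18 without the single-sheep control libraries. In all, 5 of 24 OPC members did not overlap, against 7.56% of all genes. The remaining 2, CDH10 and PCDH17, were higher in OVT73 by 0.29 ± 0.11 (0.18 without OVT73 library 2) and 0.15 ± 0.10 on the log2 scale.

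In oligodendrocytes 5 of 23 members did not overlap, against 6.52% of all genes. CDH4 was at 392, 380 and 371 CPM against 321, 330, 292 and 292 CPM (log2 fold change 0.30 ± 0.09, exact permutation p = 0.0286, adjusted p = 0.831), and CDH2 at 391, 351 and 354 CPM against 293, 347, 324 and 305 CPM (0.20 ± 0.10, exact permutation p = 0.0571, adjusted p = 0.879). PCDH18 was the low member, at 0.735, 1.71 and 1.49 CPM against 4.16, 3.51, 4.47 and 4.98 CPM. It rested on 5 to 7 UMIs in each OVT73 library and 12 to 19 in each control library (log2 fold change -1.82 ± 0.42, exact permutation p = 0.0286, adjusted p = 0.831). CDH18 (1.23 ± 1.08) and PCDHGC3 (0.25 ± 0.13) were the others without overlap, and CDH18 was at 0.82 without control library 2 and at 0.32 without both single-sheep libraries. PCDH15 had the lowest fold change, -2.13 ± 0.89, but its groups overlapped and the value became -0.16 without the single-sheep libraries.

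In astrocytes 5 of 20 members did not overlap, against 5.69% of all genes. With the same number of nuclei taken from each library it was 1 of 15, and the PCDH10 value below was 0.32. PCDH10 was at 143, 188 and 151 CPM against 120, 97.0, 106 and 115 CPM (log2 fold change 0.54 ± 0.17, exact permutation p = 0.0286, adjusted p = 0.905). PCDH9 was at 11652, 13948 and 12474 CPM against 9922, 10620, 9961 and 11154 CPM (0.29 ± 0.12, the same exact p, adjusted p = 1.00). Every OVT73 library was above every control library for both, as for CDH4 (0.23 ± 0.14) and PCDH7 (0.23 ± 0.14). The summed astrocyte markers were higher in OVT73 too, at 13709 to 14998 CPM against 11716 to 13046 CPM, with 2 of 9 markers higher without overlap, and the median UMIs per astrocyte were 2954 to 3762 against 2141 to 2828. The 12 interneuron markers also summed higher in these nuclei, at 2769 to 2833 CPM against 2019 to 2675 CPM, with 1 of 12 higher without overlap. The part of these measures in the cadherin differences was not tested.

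In neuroblasts 2 of 10 members did not overlap (5.63% of all genes), PCDH7 with a log2 fold change of -1.44 ± 0.78 and CDH10 with -1.42 ± 0.46, both lower in OVT73 (exact permutation p = 0.229 and 0.114, adjusted p = 1.00). Control library 2, with 42 neuroblasts, had 1119 CPM of PCDH7 against 246 to 322 CPM in the other controls, and its summed interneuron markers were 2680 CPM against 1199 to 1563 CPM in the other 6 libraries. Without it the values were -0.65 and -0.87.

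Of the 5 delta-2 protocadherins 3 were tested in MSNs, and none passed. Their log2 fold changes lay between 0.24 and 0.55 in D1 MSNs and between 0.20 and 0.61 in D2 MSNs, where PCDH10 overlapped. In D2 MSNs PCDH17 was at 259, 310 and 246 CPM in OVT73 against 210, 167, 220 and 215 CPM (log2 fold change 0.42 ± 0.13, exact permutation p = 0.0286, adjusted p = 0.880). PCDH19 was at 71.6, 99.6 and 63.3 CPM against 37.1, 55.0, 62.5 and 50.7 CPM, a log2 fold change of 0.61 ± 0.20 with the same exact and adjusted p (0.40 without OVT73 library 2). Both sets of libraries were apart in D2 MSNs, while in D1 MSNs the same genes overlapped, with fold changes of 0.36 ± 0.13 and 0.55 ± 0.18.

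PCDHAC2 was lower in both MSN classes. In D2 MSNs it was at 167, 168 and 167 CPM against 213, 189, 202 and 195 CPM (log2 fold change -0.26 ± 0.09, exact permutation p = 0.0286, adjusted p = 0.880) and in D1 MSNs at 172, 179 and 196 CPM against 213, 208, 250 and 197 CPM (-0.26 ± 0.12, exact permutation p = 0.0571, adjusted p = 0.929). CDH5 was at 17.6, 19.9 and 14.8 CPM in D2 MSNs of OVT73 against 35.3, 24.5, 51.5 and 23.7 CPM (-0.95 ± 0.27, exact permutation p = 0.0857, adjusted p = 0.880), and in D1 MSNs, where OVT73 and control overlapped, its fold change was -0.78 ± 0.24. CDH8 was higher in D1 MSNs, at 666, 836 and 685 CPM against 651, 519, 564 and 656 CPM (0.29 ± 0.13, exact permutation p = 0.0571, adjusted p = 0.929), and its fold change was 0.17 without OVT73 library 2. PCDH15 was low in D1 MSNs in both groups, at 7.56, 11.0 and 6.53 CPM in OVT73 and 11.1 to 16.4 CPM in controls. The last of the D2 pairs was CDH3, at 15.2 to 16.8 CPM against 17.0 to 20.6 CPM (-0.23 ± 0.16). In all, 3 of 26 members did not overlap in D1 MSNs (5.05% of all genes) and 5 of 28 in D2 MSNs (6.16%).

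**Figure D5:**
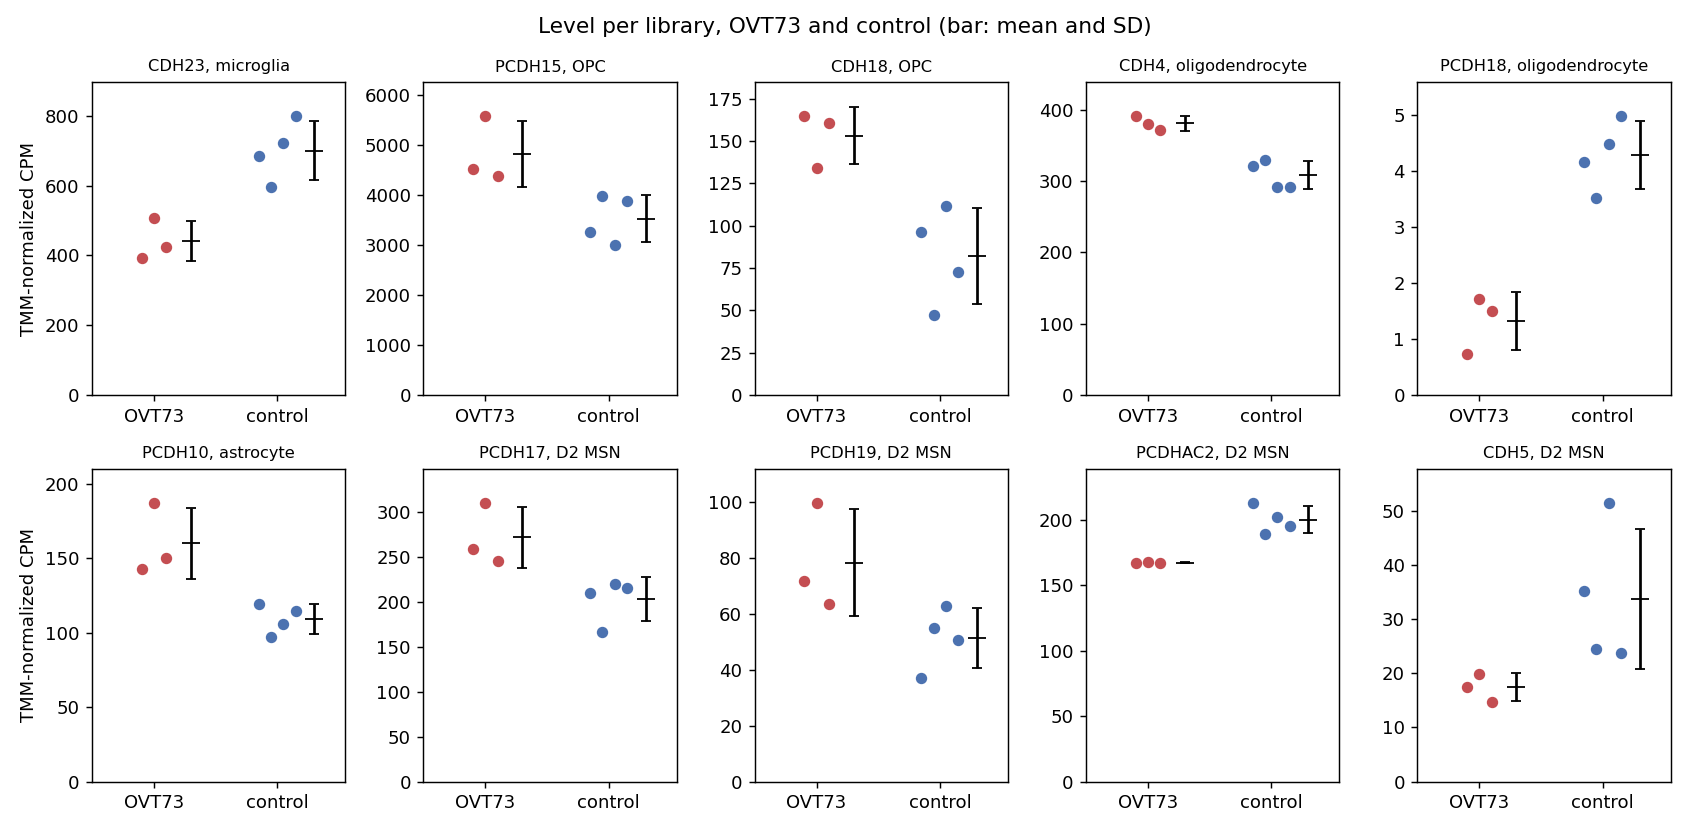
Each point is the TMM-scaled CPM of 1 library (3 OVT73 in red, 4 control in blue), with the mean and SD as a black bar, for 10 member and class pairs without overlap; every axis starts at 0. CDH23 in microglia, PCDHAC2 and CDH5 in D2 MSNs and PCDH18 in oligodendrocytes are lower in OVT73 and the other 6 higher.

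The OVT73 difference was then compared between D2 and D1 MSNs for the 21 members at 10 CPM or more in both. None passed: the lowest exact permutation p was 0.257, with an adjusted p of 1 over the 21. Since no exact p can go under 0.0286, a single member could not pass after adjustment over the 21. The test therefore cannot show that D2 and D1 MSNs are alike. For CDH2 the D2 minus D1 difference was 0.08 and for PCDH19 it was 0.02 on the log2 scale. The D2 against D1 comparison used CPM without TMM factors, so these differences are not those between the edgeR fold changes. CDH2 itself had log2 fold changes of 0.20 ± 0.20 in D1 MSNs, 0.30 ± 0.16 in D2 MSNs, 0.25 ± 0.12 in OPCs and 0.39 ± 0.19 in astrocytes, all with overlapping libraries. OVT73 library 2 was its highest in each of these 4 classes, and without it the values were -0.06 in D1 MSNs, 0.09 in D2 MSNs, 0.10 in OPCs and 0.12 in astrocytes. In the FOXP2 cluster (7.57% of all genes without overlap) and PV/Th interneurons (4.97%), none of 21 and 20 members was without overlap.

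Of the genes that work with cadherins, none passed the adjusted test in any class. Among catenins and adapters, 10 of 12 were tested in D2 MSNs, with 6 higher, 4 lower and a median log2 fold change of 0.06. In OPCs 5 of 10 were higher, and PKP4, an armadillo protein of cell junctions, was at 0.53 ± 0.11 without overlap (adjusted p = 0.451). Other cadherin superfamily genes (FAT, DCHS, CELSR, CDHR and calsyntenin families) were lower for 8 of 9 in oligodendrocytes (median -0.19), 6 of 8 in OPCs (-0.18) and 5 of 7 in PV/Th interneurons (-0.19), but higher for 7 of 12 in D1 MSNs (0.08) and 4 of 7 in astrocytes (0.04). FAT2 was lower without overlap in oligodendrocytes, OPCs and D2 MSNs, where 6.52%, 7.56% and 6.16% of all genes did not overlap in either direction. In oligodendrocytes its mean was only 2.97 CPM in OVT73 against 5.93 CPM in control (log2 fold change -1.05 ± 0.39, adjusted p = 0.879 from edgeR). These classes come from the same sheep. Cleavage and signalling partners were higher for 14 of 15 in OPCs (median 0.07) and 14 of 18 in both D1 (0.09) and D2 MSNs (0.10). They were higher for 13 of 17 in oligodendrocytes (0.06) and 7 of 14 in astrocytes. In microglia only 4 of 12 were higher (-0.07), in neuroblasts 4 of 10 (-0.07) and in PV/Th interneurons 6 of 15 (-0.02). Of all genes 46.4% to 48.7% were higher, depending on the class. Without TMM factors the median of all genes moved by -0.09 in OPCs, -0.10 in D1 MSNs, -0.11 in D2 MSNs and -0.07 in oligodendrocytes. These shifts are at least as large as the partner medians there, which were not computed without TMM factors.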

How the data were processed

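Nuclear RNA was captured with 10x 3′ chemistry. The authors mapped reads with Cell Ranger 7.0.0 and STAR 2.7.2a and deposited filtered tables of raw UMI counts per gene and barcode for 7 libraries; the study's mapping summary gives a larger share of reads in the transcriptome than in exons, as counting intronic reads would give, though it does not name the setting. Barcodes with 200 to 7500 genes and at most 5% mitochondrial counts were kept, and the 4% of each library with the highest doublet score were removed (scanpy 1.11.5), since the caller's automatic threshold marked only 129 nuclei. Library pairs shared 2 to 20 barcodes. Nuclei were clustered on 3000 variable genes and 30 principal components after batch correction by library, at resolution 1.0, and named from marker lists with thresholds set after the clusters' marker levels were seen; 71.4% of the glutamatergic-like nuclei came from 1 library, and they entered no comparison. Counts were summed per library and class and tested with edgeR 4.0.16 (glmQLFit, filterByExpr, TMM, two-sided, Benjamini-Hochberg over all genes). The same test was also run on counts simulated from the mean levels and fitted dispersions of these data. DESeq2 1.42.0, other scalings, filters, clusterings and left-out libraries were tried. The D2 against D1 comparison added 0.5 UMI before log2. The study tested nuclei with MAST instead. Members named are those that mark a class, those at 100 CPM or more in a class, in each class up to 2 per direction with the smallest p among pairs without overlap, and CDH2 and PCDH15; other pairs without overlap are given by their fold change and were named after their values were seen. The members and lists were chosen with earlier results of these data known. Of the 40 members 33 matched the RefSeq name table (ARS-UI_Ramb_v3.0), which was used for names and gene order only. No coordinates or sequences were used here.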

Additional observations from a re-analysis of the deposited data

Results flagged for a closer look

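Among 36 control groups of 4 libraries looked at, 3 had 1 library apart from the rest (gap over range above the limit for groups of 4), and chance flags about 1 in 20. These were PCDH7 in neuroblasts, where control library 2 had 1119 CPM (gap share 0.913), CDH2 in microglia, where control library 3 had 78.6 CPM (0.865), and CDH2 in PV/Th interneurons, where control library 2 had 280 CPM (0.884). In microglia of control library 3 the oligodendrocyte markers were also high, as given above.

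For 3 members the libraries did not overlap in opposite directions in different classes, and the difference between the classes was not tested. Of all genes, 7.56% were without overlap in OPCs, 5.69% in astrocytes, 5.63% in neuroblasts and 5.05% in D1 MSNs, in either direction. How many of all genes do so in opposite directions was not counted, so the 3 cannot be called unusual. PCDH15 was higher in OVT73 OPCs (log2 fold change 0.45) and lower in OVT73 D1 MSNs (-0.64), where its level was under 20 CPM in every library. CDH10 was higher in OPCs (0.29) and lower in neuroblasts (-1.42). PCDH7 was higher in astrocytes (0.23) and lower in neuroblasts (-1.44).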

How the results depend on the processing

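The count of 6 marking members was 5 at resolution 0.5 (CDH9 lost), 7 with a ratio of at least 2 (CDH13 added) and 3 with a ratio of at least 5; leaving out each library gave 5 to 6, and CDH9 was lost without OVT73 library 1. The other alternatives gave 6. With an adjusted p under 0.05, DESeq2 called 1 member in OPCs (CDH18, log2 fold change 0.92), and without a filter on low counts 2 members were called in OPCs (CDH18, 0.98, and PCDH15, 0.51) and 2 in PV/Th interneurons (CDH9 and CDH7). Without the filter edgeR called 39 of all 19121 genes in OPCs, 49 of 17860 in the FOXP2 cluster and 27 of 18262 in PV/Th interneurons. With the filter it called 1, 1 and 0. DESeq2 called 8 of 8992 genes in OPCs, 5 of 10515 in oligodendrocytes and 5 of 11749 in D2 MSNs. Leaving out each library in turn left 0 members called in every class.

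Without TMM factors the median of all genes in D2 MSNs moved by -0.11, and 13 of 23 oligodendrocyte members were higher in OVT73 rather than 16. Among named pairs the direction turned in 4. CDH2 in microglia (-0.05) was 0.017 with DESeq2, 0.047 with no filter on low counts and 0.69 with members among the variable genes, and ranged from -0.42 to 0.28 with each library left out. CDH2 in D1 MSNs ranged from -0.064 (without OVT73 library 2) to 0.35. PCDH15 in D2 MSNs ranged from -0.40 to 0.0044 (without control library 2) with each library left out. It was -0.63 with the same number of nuclei per library. CDH2 in PV/Th interneurons (-0.06) was 0.089 without the single-sheep libraries and ranged from -0.32 to 0.11 with each library left out. PCDH7 in astrocytes was 0.39 without the single-sheep libraries, PCDH15 in D1 MSNs -0.37 with members among the variable genes, PCDH17 in OPCs 0.063 without TMM factors, and, with the same number of nuclei per library, CDH3 in D2 MSNs -0.12 and CDH4 in astrocytes 0.35. The cause was not tested. No paired analysis was possible because the labels give no replicate numbers that the groups share. Depth limits the low members: 12 stayed under 20 CPM in every class, and a change of 0.5 log2 unit was recovered for 1.0% of simulated oligodendrocyte genes.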
